A study of Homo sapiens with 6 samples.

Results

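The genes described here are 10 members of the hypoxia-inducible factor (HIF) pathway: the alpha subunits HIF1A and EPAS1, their partner ARNT, the prolyl hydroxylases EGLN1 and EGLN3, and the hypoxia-induced genes CA9, VEGFA, ADM, NDRG1 and ANKRD37. They were taken by name for these roles, with earlier results of these data known, and all 10 were found among the 22941 genes of the count table. The libraries were made from HSC-3, an established line of human oral squamous cell carcinoma, kept in DMEM with fetal bovine serum and antibiotics. One group of 3 libraries came from cells under normal gravity and the other group of 3 from cells in simulated microgravity, made with a Rotary Cell Culture System, a rotating culture vessel. The labels name no genetic change in either group, the study used a single line, and the sources used here give neither the time in culture nor the vessel of the normal gravity cells. The comparison asks how the transcripts of these cells differ between the groups. Because the vessel of the normal gravity cells is not given, effects of gravity and of the culture vessel cannot be told apart. Changes given below are differences between these groups.

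HIF is a transcription factor made of an alpha and a beta subunit. With oxygen present, prolyl hydroxylases mark the alpha subunit, the VHL ubiquitin ligase binds the marked protein and the proteasome destroys it. When oxygen is low the alpha subunit persists, pairs with ARNT and binds hypoxia response elements, short DNA sites near its target genes. Regulation of the alpha subunits is thus largely at the protein level, which RNA counts do not measure, while the target genes are widely used as transcript reporters of HIF activity. In squamous carcinomas CA9 is a common marker of poorly oxygenated regions.

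Total counts were 37276166 to 38861233 per normal gravity library and 34264008 to 36317678 per simulated microgravity library. Normal gravity replicate 3 stood apart: its chi-square over genes, per degree of freedom, was 99.0 and 149 against replicates 1 and 2, which differed from each other by 18.5. Values between simulated microgravity libraries were 23.9 to 50.9. Summed CPM of 6 squamous epithelial markers was 10797 to 18722 in normal gravity and 2981 to 3862 in simulated microgravity, where KRT5, KRT14 and TP63 were lower, CDH1 and EPCAM higher and KRT6A did not pass the test. The sum of 5 fibroblast markers was 11.7 to 29.8 CPM and 17.6 to 18.4 CPM in these groups, with LUM at 0 in normal gravity, and that of 4 endothelial markers was 1.60 to 5.76 and 2.18 to 3.50 CPM. Of the tested markers 0 of 3 fibroblast genes were called by edgeR, DESeq2 or limma-voom (0 at an unadjusted p under 0.05 in edgeR), and 1 of 3 endothelial genes (CDH5, whose group means were 0.0531 and 0.746 CPM) and 1 of 2 leukocyte genes (CD68) rose. The 4 leukocyte markers summed to 79.3 to 109 and 174 to 202 CPM, of which the lysosomal protein gene CD68 gave 93.6 ± 15.1 and 188 ± 13.2 CPM, with PTPRC at 0.176 ± 0.0147 and 0.0750 ± 0.0650 CPM (SD, n = 3). The part of these markers in the results below was not tested.

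Of the 10 genes, 4 fell in simulated microgravity, 1 rose and 5 did not pass the test. CA9, EGLN3, ADM and NDRG1 fell and VEGFA rose, whereas HIF1A, EPAS1, ARNT, EGLN1 and ANKRD37 did not pass. The test was edgeR's quasi-likelihood test with Benjamini-Hochberg adjustment over 14736 genes and a threshold of 0.05, and all 10 genes passed the filter on low counts. Across all genes tested, 29.3% were called lower, 28.2% higher and 57.6% in either direction, so calls were common and the share of the 10 genes called is not a result about them. Values are normalised read counts (CPM, scaled to a common library size), errors are SD over 3 libraries, and a positive log2 fold change means a higher value in simulated microgravity. In bulk RNA, fewer cells of a type and less RNA per cell cannot be told apart.

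**Figure D1:**
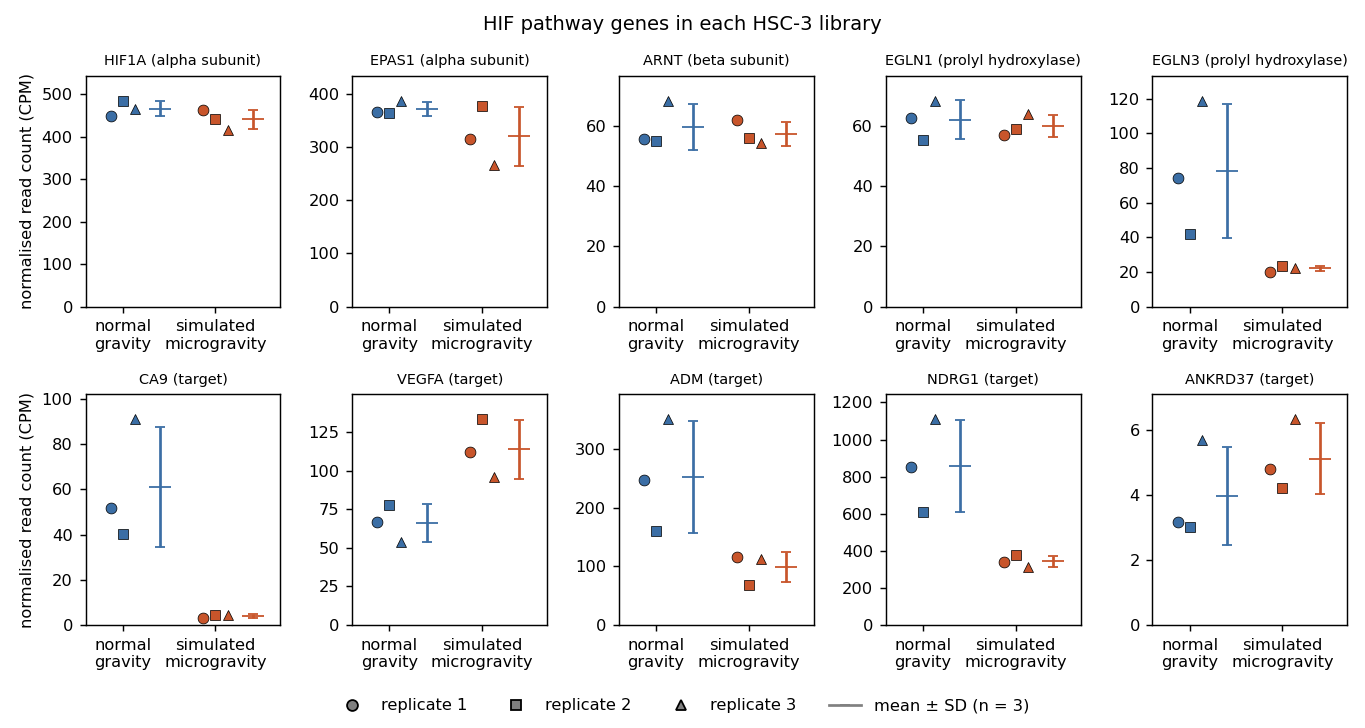
Normalised read count (CPM, linear axis from 0) of each of the 10 genes in the 6 libraries. Symbols mark the replicate number, and bars the mean ± SD of each group (n = 3). CA9 lay between 3.10 and 4.48 CPM in simulated microgravity and between 40.1 and 91.2 CPM in normal gravity, while HIF1A lay between 417 and 485 CPM in all libraries.

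The oxygen-regulated alpha subunits were abundant in both groups, and neither was called. HIF1A (gene ID 3091, chromosome 14, 61695513 to 61748258, GRCh38.p14), whose product drives the acute response to low oxygen, was at 449, 485 and 465 CPM in normal gravity replicates 1, 2 and 3 and 463, 443 and 417 CPM in simulated microgravity. The groups overlapped, and the log2 fold change was -0.08 with a 95% interval from -0.32 to 0.16 (edgeR adjusted p = 0.538). That interval leaves out a fall or a rise of 2-fold.

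EPAS1 (gene ID 2034, chromosome 2, 46297407 to 46386697), which encodes the second alpha subunit, HIF-2 alpha, was at 367, 364 and 388 CPM under normal gravity and 316, 378 and 268 CPM in simulated microgravity. Simulated microgravity replicate 2 lay within the normal gravity range and the other two below it. The log2 fold change was -0.22, with an interval from -0.54 to 0.10 (edgeR adjusted p = 0.209). Without simulated microgravity replicate 2 the change was -0.36 and was called (edgeR adjusted p = 0.0448).

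The balance of the alpha subunits, log2 CPM of EPAS1 minus that of HIF1A within a library, was -0.322 ± 0.0809 in normal gravity and -0.474 ± 0.218 in simulated microgravity (n = 3 each). The groups overlapped in this measure, which does not depend on library scaling, and the difference of -0.15 gave p = 0.4 in the exact two-sided permutation test, whose smallest possible value here is 0.1.

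ARNT (gene ID 405, chromosome 1, 150809713 to 150876599), the beta subunit shared by the alpha subunits and present regardless of oxygen, was at 55.6, 55.1 and 68.5 CPM under normal gravity and 61.9, 56.2 and 54.3 CPM in simulated microgravity. The groups overlapped (log2 fold change -0.06, interval -0.33 to 0.22, edgeR adjusted p = 0.716). Without normal gravity replicate 3, the highest library, the sign turned and the change was 0.05.

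Of the prolyl hydroxylases, EGLN3 fell and EGLN1 did not pass the test. EGLN1 (PHD2, gene ID 54583, chromosome 1, 231363756 to 231422287), the main oxygen sensor acting on HIF1A protein, was at 62.7, 55.2 and 68.4 CPM under normal gravity and 57.1, 58.8 and 64.0 CPM in simulated microgravity. All simulated microgravity libraries lay inside the normal gravity range, with a log2 fold change of -0.05 and an interval from -0.31 to 0.21 (edgeR adjusted p = 0.726). Its sign also turned without normal gravity replicate 3, to 0.03.

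EGLN3 (PHD3, gene ID 112399, chromosome 14, 33924227 to 33951074), a hydroxylase that is itself strongly induced by HIF, was at 74.4, 41.9 and 119 CPM under normal gravity and 20.1, 23.4 and 22.4 CPM in simulated microgravity. The groups did not overlap, and the lowest normal gravity library was 1.91 times the simulated microgravity mean. The log2 fold change was -1.84 (SE 0.33, edgeR adjusted p = 0.00228), a 3.57-fold fall, and it was -1.40 without normal gravity replicate 3.

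Within a library, EGLN3 minus EGLN1 was 0.25, -0.40 and 0.80 on the log2 CPM scale in normal gravity and -1.50, -1.33 and -1.51 in simulated microgravity. EGLN3 counts thus exceeded those of EGLN1 in normal gravity replicates 1 and 3 and were below them in the other 4 libraries. These counts are not scaled by exon length, which is 4872 bases for EGLN3 and 7097 for EGLN1. In normal gravity replicate 2, CPM per kilobase of exon was 8.60 for EGLN3 and 7.78 for EGLN1, so the order there depends on length. The difference of EGLN3 minus EGLN1 between groups, -1.66, gave p = 0.1 in the exact two-sided permutation test, the smallest value that 3 against 3 allows. The third prolyl hydroxylase gene, EGLN2, had 2 counts over the 6 libraries and was not tested. In RefSeq its whole span of 9244 bases lies inside the RAB4B-EGLN2 readthrough gene, and the effect of that overlap on its counts was not tested.

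**Figure D2:**
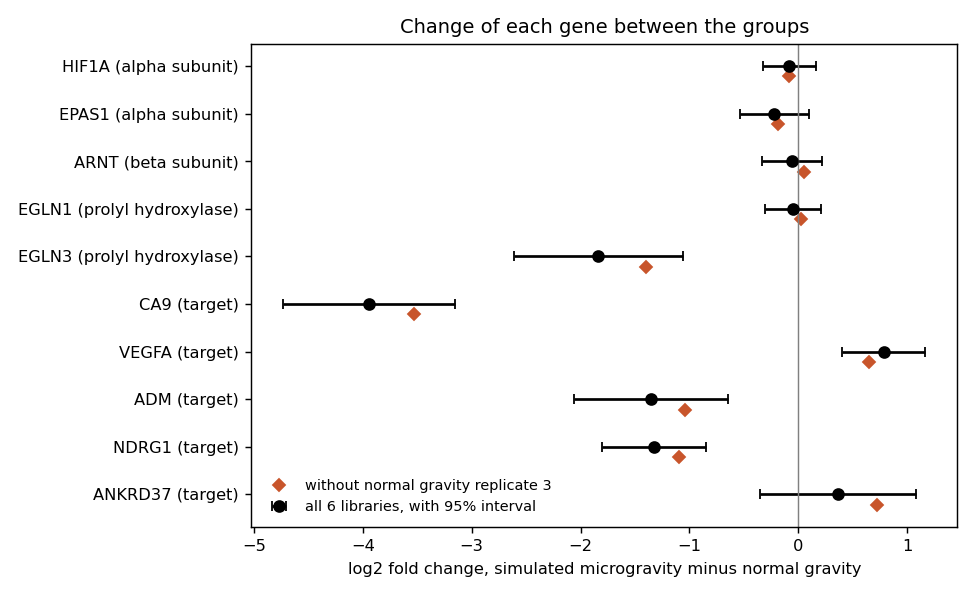
Log2 fold change (simulated microgravity minus normal gravity) of the 10 genes. Black points are the fit on all 6 libraries with 95% intervals, and orange diamonds are the fit without normal gravity replicate 3. The intervals of CA9, EGLN3, ADM, NDRG1 and VEGFA lie on one side of 0, and those of the other genes cross it.

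Among the target genes CA9 had the largest log2 fold change. CA9 (gene ID 768, chromosome 9, 35673928 to 35681159) encodes carbonic anhydrase IX, a cell surface enzyme that converts carbon dioxide to bicarbonate and acidifies the surroundings of tumour cells. It was at 52.0, 40.1 and 91.2 CPM under normal gravity and 3.10, 4.31 and 4.48 CPM in simulated microgravity. The groups lay far apart, with the lowest normal gravity library at 10.1 times the simulated microgravity mean. The log2 fold change was -3.94 (SE 0.34, edgeR adjusted p = 6.52e-05), a 15.4-fold fall, and it was -3.53 without normal gravity replicate 3.

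ADM (gene ID 133, chromosome 11, 10305073 to 10307397), which encodes the vasodilator peptide adrenomedullin, was at 247, 160.1 and 351 CPM under normal gravity and 115, 68.6 and 112 CPM in simulated microgravity. Replicate 2 was the lowest library of each group, and the groups did not overlap. The fall was 2.56-fold (log2 fold change -1.35, SE 0.31, edgeR adjusted p = 0.00632), and the change was -1.04 without normal gravity replicate 3.

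NDRG1 (gene ID 10397, chromosome 8, 133237175 to 133297252), a stress-responsive gene linked to growth arrest and differentiation, was at 853, 612 and 1111 CPM under normal gravity and 338, 376 and 314 CPM in simulated microgravity. Each simulated microgravity library was below each normal gravity library, and the lowest of the latter was 1.79 times the mean of the former. NDRG1 fell 2.51-fold (log2 fold change -1.33, SE 0.21, edgeR adjusted p = 0.00084), with a change of -1.09 (in log2) without normal gravity replicate 3.

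VEGFA went the other way. This gene (gene ID 7422, chromosome 6, 43770211 to 43786487), which encodes the main growth factor for blood vessels, was at 66.8, 78.0 and 53.6 CPM under normal gravity and 112, 134 and 95.9 CPM in simulated microgravity. All 3 simulated microgravity libraries exceeded all normal gravity libraries. It rose 1.72-fold (log2 fold change 0.78, SE 0.17, edgeR adjusted p = 0.00409), and the change was 0.65 without normal gravity replicate 3. All of the genes that fell and VEGFA kept their call and direction in all 14 alternatives, which are described further on.

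ANKRD37 (gene ID 353322, chromosome 4, 185396841 to 185400723), a small ankyrin repeat gene used as a hypoxia reporter, was low, at 3.17, 3.01 and 5.68 CPM under normal gravity and 4.80, 4.19 and 6.32 CPM in simulated microgravity. Normal gravity replicate 3 lay within the simulated microgravity range and replicates 1 and 2 below it. The log2 fold change of 0.37 had an interval from -0.35 to 1.09 and was not called (edgeR adjusted p = 0.342). Without normal gravity replicate 3 it was 0.73 and was called higher (edgeR adjusted p = 0.0322), so this result rests on that library.

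No overlap between the groups was found for 4 genes in the lower direction and 1 in the higher, the same 5 genes that were called. Over all genes tested, 33.3% had no overlap in the lower direction and 33.0% in the higher. A fall of at least 2-fold was called for 4 of the 10 genes and for 15.6% of all genes tested. The median log2 fold change was -0.15 for the 10 genes and -0.01 for all genes tested.

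Promoter windows were searched because HIF binds short DNA sites near its target genes. Whether HIF bears on the changes described above was not tested. RefSeq promoter windows (GRCh38.p14) were matched by gene ID for 8 of the 10 genes, that is, all but VEGFA and NDRG1. The 250 bases before each start were searched on both strands for ACGTG and GCGTG, the core letters of the element. Of 35116 windows in the whole RefSeq table, 43.2% held at least 1 match, 18.5% held ACGTG and 32.2% held GCGTG. A match was found for 6 of the 8 genes, so a match is common and is given as a description of the letters only. The windows of the 3 genes that fell and have one, and of ANKRD37, are shown 5′ to 3′ on the gene's strand, with matches on either strand in capitals. They are CA9 at chr9:35673678-35673927 (plus strand), ADM at chr11:10304823-10305072 (plus strand), EGLN3 at chr14:33951075-33951324 (minus strand) and ANKRD37 at chr4:185396591-185396840 (plus strand).
CA9: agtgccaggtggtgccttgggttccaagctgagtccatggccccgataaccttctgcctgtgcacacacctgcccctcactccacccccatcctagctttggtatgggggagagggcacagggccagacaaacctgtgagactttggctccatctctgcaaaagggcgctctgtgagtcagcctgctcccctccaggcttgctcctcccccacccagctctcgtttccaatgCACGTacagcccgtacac
ADM: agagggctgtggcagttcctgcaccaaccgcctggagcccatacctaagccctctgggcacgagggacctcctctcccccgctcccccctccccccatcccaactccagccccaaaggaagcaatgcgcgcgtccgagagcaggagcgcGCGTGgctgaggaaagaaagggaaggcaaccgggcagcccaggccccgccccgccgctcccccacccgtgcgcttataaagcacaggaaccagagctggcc
EGLN3: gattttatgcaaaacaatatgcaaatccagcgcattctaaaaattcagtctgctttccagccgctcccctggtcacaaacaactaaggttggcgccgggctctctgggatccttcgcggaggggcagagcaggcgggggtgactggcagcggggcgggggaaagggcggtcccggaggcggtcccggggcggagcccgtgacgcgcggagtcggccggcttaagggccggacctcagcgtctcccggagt
ANKRD37: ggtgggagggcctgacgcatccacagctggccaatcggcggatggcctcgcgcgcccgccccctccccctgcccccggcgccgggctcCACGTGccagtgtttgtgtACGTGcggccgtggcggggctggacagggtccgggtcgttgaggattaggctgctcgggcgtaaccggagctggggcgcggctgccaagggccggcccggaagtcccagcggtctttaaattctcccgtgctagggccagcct

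In CA9, the gene with the largest fall of the 10, the match was ACGTG on the opposite strand, between 18 and 14 bases before the start. ADM held GCGTG on its own strand, 101 to 97 bases before the start. The EGLN3 window held neither motif. ANKRD37 held 3 matches, 2 of which overlap on opposite strands in the palindrome CACGTG, and it did not pass the test. Of the genes not shown, HIF1A, EPAS1 and EGLN1 held 1 match each, HIF1A in the first of its 2 windows, and ARNT none.

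**Figure D3:**
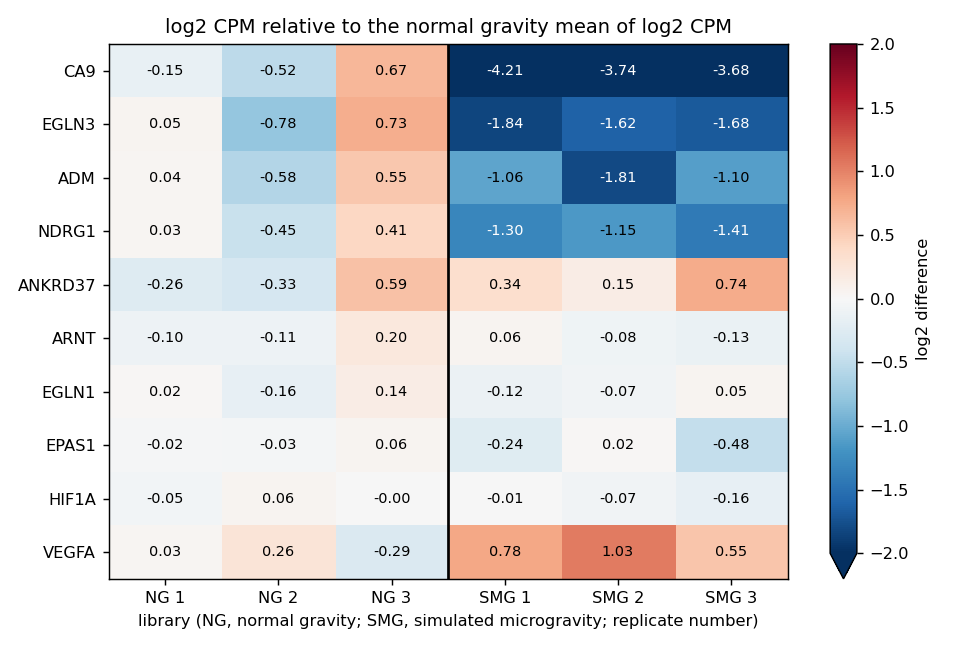
Log2 CPM of the 10 genes in each library, relative to the mean of log2 CPM over the 3 normal gravity libraries. Columns are libraries (NG, normal gravity; SMG, simulated microgravity) and the colour scale is cut at -2 and 2. Normal gravity replicate 3 is above 0 and replicate 2 below 0 for CA9, EGLN3, ADM, NDRG1 and ANKRD37, and the signs are opposite for VEGFA.

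The normal gravity libraries differed among themselves in these genes. In 8 of the 10, all but HIF1A and VEGFA, replicate 3 was highest and replicate 2 lowest, an order found in 25.5% of all genes tested. VEGFA had the reverse order, with replicate 2 highest. The highest normal gravity library exceeded the lowest 2.84-fold for EGLN3, 2.27-fold for CA9, 2.19-fold for ADM, 1.82-fold for NDRG1 and 1.89-fold for ANKRD37, but 1.08-fold for HIF1A and 1.07-fold for EPAS1 (read as ratios of single libraries, with no test).

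Simulated microgravity libraries were closer together for most of these genes. EGLN3 had an SD of log2 CPM of 0.753 in normal gravity and 0.113 in simulated microgravity, and NDRG1 of 0.431 and 0.131. The spread was larger in normal gravity for 8 of the 10 genes and for 60.0% of all genes tested, with HIF1A and EPAS1 as the exceptions among the 10. Squamous marker sums had the same order in normal gravity, 14085, 10797 and 18722 CPM in replicates 1, 2 and 3. KRT5 and KRT14 made up most of these sums, while TP63 and EPCAM did not follow the order. The fibroblast sums of 14.0, 11.7 and 29.8 CPM and the endothelial sums of 1.67, 1.60 and 5.76 CPM had it too, and the leukocyte sums of 94.9, 109 and 79.3 CPM had the reverse order. Whether these markers bear on the spread of the HIF targets was not tested.

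Levels were also ordered per length, as CPM per kilobase of exon in GENCODE release 29. In normal gravity NDRG1 was highest at 228 ± 66.3, followed by HIF1A (110 ± 4.31), ADM (92.9 ± 35.1), EPAS1 (72.2 ± 2.55), CA9 (37.7 ± 16.5), VEGFA (17.6 ± 3.25), EGLN3 (16.1 ± 7.93), ARNT (12.1 ± 1.54), EGLN1 (8.75 ± 0.931) and ANKRD37 (3.46 ± 1.32). Neighbours in that order whose libraries overlapped were HIF1A with ADM, ADM with EPAS1, VEGFA with EGLN3 and EGLN3 with ARNT. Both alpha subunits thus had a higher level per length than ARNT in every library.

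In simulated microgravity the order per length was HIF1A (104 ± 5.44), NDRG1 (91.1 ± 8.34), EPAS1 (62.0 ± 10.8), ADM (36.3 ± 9.62), VEGFA (30.2 ± 5.02), ARNT (11.6 ± 0.803), EGLN1 (8.45 ± 0.512), EGLN3 (4.51 ± 0.347), ANKRD37 (4.47 ± 0.961) and CA9 (2.45 ± 0.464). CA9 moved from the fifth place to the last, and EGLN3 from above ARNT to below EGLN1. Libraries overlapped for HIF1A with NDRG1, ADM with VEGFA and EGLN3 with ANKRD37.

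Of 15 listed genes for oxygen sensing, HIF subunits and HIF cofactors, 13 were tested, of which 5 rose, none fell and 8 did not pass. All genes tested divided into 28.2% higher and 29.3% lower. The median log2 fold change of the list was 0.05, against -0.01 over all genes. No member was lower at an unadjusted p under 0.05 in edgeR, and DESeq2 and limma-voom also called 0 lower. EP300 and CREBBP, the acetyltransferases that HIF recruits as coactivators, had log2 fold changes of 0.98 (SE 0.12, edgeR adjusted p = 1.86e-04) and 0.96 (SE 0.12, edgeR adjusted p = 2.51e-04). The other genes that rose were named after their values were seen. They were ARNT2, a paralog of ARNT, at 1.40, VHL, which recognises hydroxylated alpha subunits, at 0.40, and CITED2. CITED2, which competes with HIF for EP300, was at 0.77 and close to the threshold (edgeR adjusted p = 0.0457). Its groups overlapped, and those of ARNT2 and VHL did not. HIF1AN, the asparagine hydroxylase that blocks coactivator binding, did not pass, at 77.8 ± 4.01 and 68.7 ± 5.18 CPM. Without normal gravity replicate 1, 3 genes of this list rose.

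**Figure D4:**
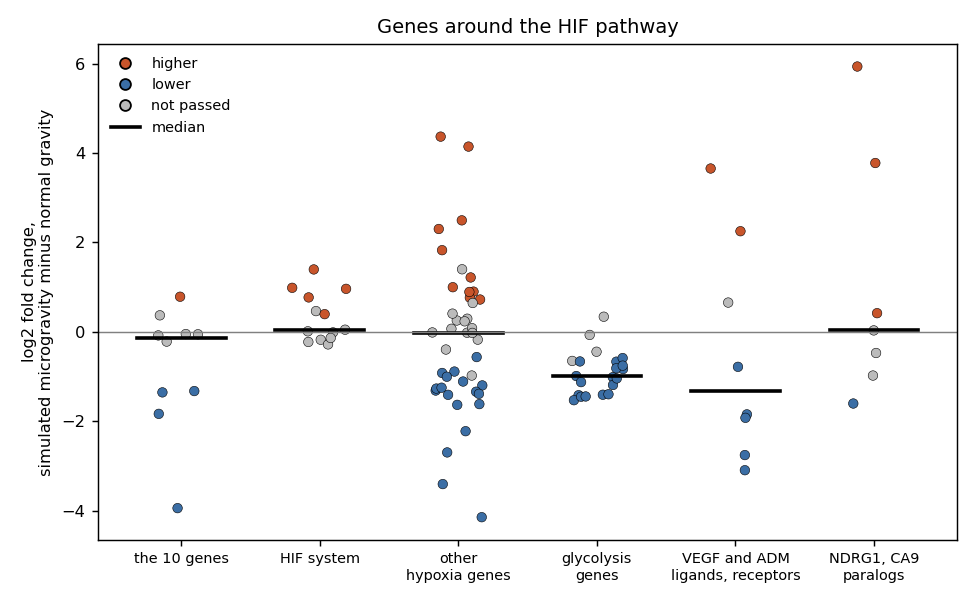
Log2 fold change (simulated microgravity minus normal gravity) of the tested genes of each list. Each point is a gene, coloured by its call in edgeR's quasi-likelihood test at an adjusted p of 0.05, and black lines are medians. The glycolysis genes lie mostly below 0 (median -0.99), and the other hypoxia genes lie on both sides (median -0.02).

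Further genes known as induced by hypoxia, outside glycolysis, were called in both directions, as were genes overall. Of 43 tested, 18 fell, 11 rose and 14 did not pass, beside 29.3% lower and 28.2% higher among all genes tested. The median log2 fold change was -0.02, and -0.01 over all genes. LOXL2, a matrix crosslinking oxidase, and BNIP3, a mitophagy receptor, led those that fell by adjusted p, with log2 fold changes of -2.70 and -1.41. HMOX1, a heme-degrading enzyme, and ANGPTL4, a lipase inhibitor, led those that rose, at 4.37 and 4.14. Normal gravity replicate 3 was the highest of its group for 27 of the 43 genes and for 8 of the 10 described above, against 41.5% of all genes tested.

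Of 21 glycolysis genes known as hypoxia-induced, 17 fell, none rose and 4 did not pass, beside 29.3% lower and 28.2% higher among all genes tested. ALDOA was among the 4 that did not pass, at 27.5 ± 2.87 and 26.2 ± 2.80 CPM. Whether reads of ALDOA were lost in counting was not tested. The median log2 fold change was -0.99, and -0.01 over all genes. GPI and PFKFB3, enzymes of sugar phosphate conversion, had log2 fold changes of -1.41 and -1.19. No glycolysis gene was higher at an unadjusted p under 0.05 in edgeR, and DESeq2 and limma-voom called 0 higher. Whether the glycolysis genes differ from the 10 genes or from the other hypoxia genes was not tested.

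Of 8 tested ligands and receptors related to VEGFA and ADM, 5 fell, 2 rose and 1 did not pass, and of all genes 29.3% fell and 28.2% rose. The median log2 fold change of the list was -1.315, and -0.01 over all genes. RAMP1, an accessory protein of the calcitonin receptor-like receptor family, was at 33.0, 31.5 and 34.7 CPM under normal gravity and 3.79, 7.42 and 3.46 CPM in the rotary vessel (log2 fold change -2.76, SE 0.29, edgeR adjusted p = 1.08e-04). NRP1, a co-receptor for VEGFA, fell from 33.2 ± 6.95 to 8.74 ± 2.67 CPM, so it moved opposite to VEGFA. The ligands PGF and ADM2 rose but stayed low, from 0.351 ± 0.341 to 4.46 ± 1.24 CPM and from 0.124 ± 0.0817 to 0.601 ± 0.0541 CPM, and 1 of them was left when only genes above 1 CPM in 3 libraries were kept. Of the other ligands, VEGFB and VEGFC fell, with log2 fold changes of -0.78 and -1.85, and were named after their values were seen. KDR, the main signalling receptor for VEGFA, and RAMP2, which forms an adrenomedullin receptor, had too few counts to be tested.

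Paralogs of NDRG1 moved opposite to it. NDRG4 was at 4.84, 4.98 and 2.63 CPM under normal gravity and 278, 199 and 285 CPM in the rotary vessel (log2 fold change 5.93, SE 0.29, edgeR adjusted p = 5.61e-06). NDRG2 was at 18.2, 12.8 and 17.0 CPM and at 235, 151 and 272 CPM (log2 fold change 3.78, SE 0.25, edgeR adjusted p = 1.84e-05). NDRG3, named after its values were seen, rose by 0.42 on the log2 scale. Of these 4 family members NDRG1 was the one that fell. Of 7 tested paralogs of NDRG1 and CA9 together, 3 rose, 1 fell and 3 did not pass, against 28.2% higher and 29.3% lower over all genes. The one that fell was CA11, a carbonic anhydrase-related protein without known enzyme activity, from 17.1 ± 11.0 to 5.64 ± 1.16 CPM. The number that fell was 2 without the low-count filter and without normal gravity replicate 1, normal gravity replicate 2 or simulated microgravity replicate 3.

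Genes that overlap the 10 in RefSeq could share reads with them, since the sources used here do not say whether counting used the strand. HIF1A-AS3, a non-coding RNA that overlaps HIF1A over 32701 bases, had 9, 10 and 8 counts in normal gravity and 147, 78 and 209 in simulated microgravity (log2 fold change 4.07, SE 0.46, edgeR adjusted p = 1.52e-04, named after its values were seen). HIF1A itself had 15175 to 18237 counts per library. Reads in sequence that both share may have been dropped or assigned to either. UFSP2, which overlaps the end of ANKRD37 by 1187 bases, fell from 1651 to 1772 counts per library to 821 to 862, whereas ANKRD37 had 113 to 230. The effect of these overlaps was not tested.

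Genes with the most similar profile were sought by the root mean square difference of log2 CPM, centred per gene, over the 6 libraries, among genes with a mean of at least 10 CPM. The nearest to HIF1A were CNOT1 and BICD2, at 0.0208 and 0.0244. For EPAS1 they were AGO3 and ZNF337, at 0.0454 and 0.0471, and for VEGFA TIAM1 and TEF, at 0.109 and 0.128. TIAM1 had 11.3 ± 2.63 CPM under normal gravity and 20.9 ± 2.76 CPM in the rotary vessel.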

How the data were processed

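RNA of 6 HSC-3 libraries, 3 per group by their titles, was extracted with TRIzol and sequenced as paired-end reads, per the labels' protocols. What the authors deposited is a single table of raw gene counts, whole numbers without scaling. The submitters' processing notes name the hg38 build and the tools HISAT, HTSeq, fastp, DESeq2 and R 3.2.0 without saying what each did. The short column names were mapped to samples through the treatment protocol, which names SMG as the simulated microgravity group, and the replicate numbers. NC is not spelled out in the labels and was taken as normal gravity because it is the other of the 2 groups, and every direction rests on this. The sources used here do not say how separate the cultures were, so p-values reflect only the spread of these libraries, which may be technical in part.

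Genes were kept with filterByExpr (minimum count 10, 14736 of 22941 genes), scaled by TMM and tested with edgeR 4.0.16 (quasi-likelihood F-test, robust, R 4.3.3) with Benjamini-Hochberg adjustment. Standard errors are approximate, the absolute change over the square root of F, and 95% intervals use the moderated degrees of freedom. Balances within a library used log2 CPM with a prior count of 2 and an exact permutation test. Alternatives were other scalings and filters, DESeq2 1.42.0, limma-voom (limma 3.58.1), a replicate block and leaving out each library. The fit was tested on counts simulated for this comparison, with 10 draws at each of 2 dispersion settings. With the gene-wise dispersion estimates (14474 to 14504 genes) it recovered a median of 56.9% of 2-fold and 87.3% of 4-fold changes, and a median of 8.28% of its calls were false (range 4.52% to 12.2%), above the 5% that the threshold implies. The second setting, dispersions scattered around the trend, was added after the first had been seen to give too many false calls. With it (14479 to 14512 genes) the medians were 57.7% and 90.1%, with 4.05% false calls (range 2.01% to 7.98%). Few genes were changed in these draws, with medians of 151.5 and 150.5 calls at the 2 settings, against 8482 in the data. Shares of false calls and of recovered changes depend on how many genes change. These percentages therefore do not carry over to this comparison. Calls close to the threshold may still be less certain than their adjusted p states, which these draws cannot decide. Gene coordinates and promoter windows are from RefSeq GRCh38.p14 and exon lengths from GENCODE release 29. Members and lists were chosen with earlier results of these data known. All 10 members are named, and from each list the 2 called genes with the smallest adjusted p in each direction. Apart from cell type markers, other genes were named outside this rule, some of them said to be chosen after their values were seen. HIF1AN, EGLN2, ALDOA, KDR, RAMP2 and UFSP2 were also named outside it, with their values available. The rule also names the 2 genes nearest in profile to HIF1A, EPAS1 and VEGFA. Of the listed genes VEGFD, FLT1 and RAMP3 were not analysed here. Protein sequences were not used here.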

Additional observations from a re-analysis of the deposited data

How the results depend on the processing

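In 14 alternatives of scaling, filter, test and libraries, CA9, EGLN3, ADM and NDRG1 stayed lower and VEGFA higher, each past the threshold. Their log2 fold changes ranged from -4.17 to -3.53, -2.14 to -1.40, -1.60 to -1.04, -1.52 to -1.09 and 0.65 to 0.92. The number of the 10 genes called higher was 1 to 2 and called lower 4 to 5 when each library was left out, the additions being ANKRD37 without normal gravity replicate 3 and EPAS1 without simulated microgravity replicate 2. With single libraries left out the log2 fold change of ARNT ranged from -0.116 to 0.0543 and that of EGLN1 from -0.130 to 0.0255, positive without normal gravity replicate 3, and the cause was not tested. Calls over all genes were 8482, and 6938 to 9555 with a library left out, while scaling by upper quartile gave 3778 higher and 4759 lower, against 4157 and 4325.

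Deviations of same-numbered libraries from their group means correlated at 0.049, -0.044 and -0.017 across genes. Those of differently numbered libraries correlated at -0.069 to 0.077. The labels do not say whether a number marks a shared culture, and these values cannot settle it. With the replicate number as a block, 7860 genes were called, 3875 higher and 3985 lower, and 1 of the 10 genes rose and 4 fell. The block leaves the log2 fold change of CA9 at -3.88, and the balances, which come from a permutation test, have no blocked fit. ANKRD37, with 113 to 230 counts per library, had a log2 fold change of 0.73 and an edgeR adjusted p of 0.0322 without normal gravity replicate 3, and adjusted p of 0.203 to 0.689 under the other alternatives.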
